A study of Homo sapiens with 6 samples.

Results

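The genes described here are those of the ubiquitin system whose symbols begin with UBA, UBE2, USP, UCHL, OTUD or DCAF, leaving out UBA7, UBE2C and USP18. This choice gave 123 members among 14884 named genes, each read through 1 probe set, the brightest on average over all 6 arrays. RefSeq lists 111 of them as protein coding, and the remaining 12 are antisense or divergent transcripts and pseudogenes. They were read with Affymetrix 1-colour arrays in total RNA of U-87 MG, a widely used line of human glioblastoma cells. The exposed group was 3 independent cultures kept for 54 h without a break in electromagnetic fields (RGFIELDS) meant to act on HSP70, CHI3L1, the microRNA miR-381 and a mutated alpha-kinase 2, in a culture box inside a Faraday chamber. The unexposed group was 3 cultures of the same line in a box outside the chamber, grown in the same medium and gas mixture. The field and the culture box differ together between the groups and so cannot be told apart, both groups are the same single cell line, and the labels of the exposed samples use the word control in their description while title and source name call them exposed. Values are log2 expression as deposited, and a log2 change is exposed minus unexposed.

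Ubiquitin is a small protein that cells attach to other proteins to mark them for degradation, relocation or a change of activity. An E1 enzyme activates it with ATP, an E2 enzyme carries it, and an E3 ligase brings the charged E2 to a substrate. DCAF proteins are the interchangeable receptors of the cullin 4 E3 ligases and dock substrates onto the adaptor DDB1, while the deubiquitinases of the USP, UCHL and OTUD families take ubiquitin off again. Related E1 and E2 enzymes attach ubiquitin-like proteins such as NEDD8, SUMO and ISG15.

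Exposed cells had lower transcript levels of the substrate receptors DCAF16 and DCAF15, of the E2 enzymes UBE2T and UBE2S and of the deubiquitinase USP1, and a higher level of the deubiquitinase USP48. These 6 of 123 members passed an adjusted p of 0.05 in limma, 5 lower and 1 higher in exposed cells. Over all genes 3.06% passed, 1.67% lower and 1.40% higher, against 4.88% of the members, 4.07% lower and 0.813% higher. Members tended to be bright, and among the 62 at or above the members' median level of 6.90 the share that passed was 9.68%, against 7.98% of the 4072 genes at or above that level. The share of members called was thus near that of genes of like brightness. The other 117 members did not pass, and 8 of them had an adjusted p between the threshold and 0.1. In cultures, fewer cells in a given state and less RNA per cell cannot be told apart.

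The calls of all genes changed when single arrays were left out, and those of the members with them. Fewer arrays also lower the power of the test, so a lost call does not show that a single array drove it. When exposed replicate 1 or 2, or unexposed replicate 2 or 3, was left out, limma called 0 of all 14884 genes at an adjusted p of 0.05, and so 0 members. In these 4 settings 2212, 2065, 2239 and 2287 genes had an unadjusted p under 0.05, among them 22, 21, 20 and 27 members. With all arrays 32 members, or 26.0%, had an unadjusted p under 0.05, against 18.9% of all genes. Among the 62 brighter members it was 23, against 1519 of the 4072 genes at or above their median level. At like brightness the shares were thus near each other. Without unexposed replicate 1 DCAF16 was the 1 member among 67 genes that passed, and without exposed replicate 3 DCAF15, DCAF16, UBE2T and USP1 were among 325 genes. The signs of all 6 members stayed as given in each of these settings.

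**Figure D1:**
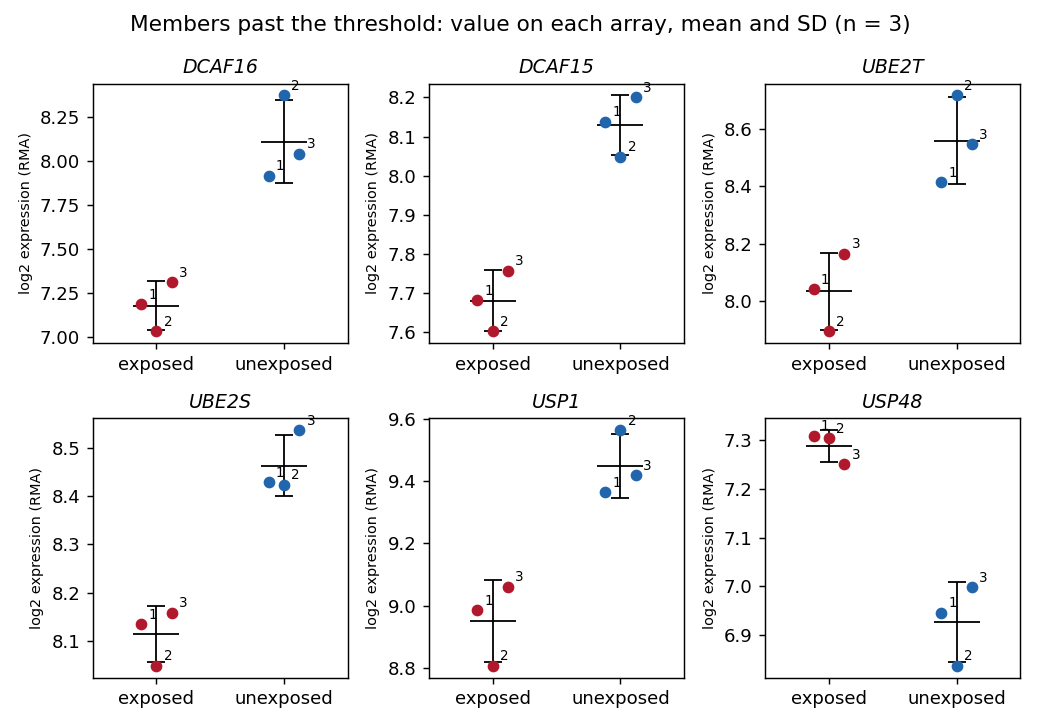
Log2 expression (RMA) of DCAF16, DCAF15, UBE2T, UBE2S, USP1 and USP48 on each array, with exposed cultures in red left of unexposed cultures in blue, the replicate number beside each point, and bars for the mean and SD (n = 3 each). Each panel has its own vertical axis, which does not start at 0. The exposed values lie below the unexposed values for the first 5 genes and above them for USP48, with no overlap in any panel.

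DCAF16, a nuclear receptor of the cullin 4 ligase that is best known because electrophilic degrader compounds bind it, had the largest change of any member. The rule that chose the members named DCAF16 itself, with earlier results of these data known. Its probe set 16974713 read 7.19, 7.04 and 7.31 in exposed cells, against 7.92, 8.37 and 8.04 in unexposed cells. All 3 exposed values lay below the lowest unexposed value, and unexposed replicate 2 stood highest. Exposed cells averaged 7.18 ± 0.14 and unexposed cells 8.11 ± 0.24 (SD, n = 3 each). The log2 change was -0.93 (SE 0.13, 95% interval -1.23 to -0.64), a ratio of 0.524, with a limma adjusted p of 0.0287. Without unexposed replicate 2 the change was -0.80 (limma adjusted p = 0.0704). Over all settings without one array the change lay between -1.03 and -0.80, with limma adjusted p of 0.0318 to 0.120.

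DCAF15, the receptor through which aryl sulfonamide compounds direct the splicing factor RBM39 to degradation, fell as well, by a smaller amount. It read 7.68, 7.60 and 7.76 in exposed cells, against 8.14, 8.05 and 8.20 in unexposed cells, and the groups did not overlap. Its log2 change was -0.45 (SE 0.07, 95% interval -0.62 to -0.28, limma adjusted p = 0.0312). Without one array it lay between -0.49 and -0.41, with limma adjusted p of 0.0403 to 0.120.

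The remaining 16 of the 18 measured DCAF genes did not pass. DCAF12, which recognises proteins that end in acidic residues, read 6.72, 6.81 and 6.67 in exposed cells, against 7.00, 7.10 and 6.96 in unexposed cells. The groups did not overlap, but the change of -0.29 (95% interval -0.46 to -0.11) missed the threshold with a limma adjusted p of 0.0920. DCAF4L2 had a change of -0.36 at a level near the array medians (4.07 ± 0.05 in exposed and 4.43 ± 0.16 in unexposed cells), with a limma adjusted p of 0.179. The positive changes nearest to the threshold were small, 0.14 for DCAF12L2 and 0.04 for DCAF5. Over the DCAF genes 14 changes were negative and 4 positive, with a median of -0.07 against 0.0029 over all genes, but centring on ribosomal protein genes left 8 negative and a median of 0.02, against 0.09 over all genes.

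Among the 25 measured E2 genes and E2 variants, UBE2T and UBE2S fell and the other 23 did not pass. The 25 include UBE2NL and UBE2DNL, which RefSeq lists as pseudogenes. UBE2T works with the ligase FANCL to attach ubiquitin to FANCD2 in the Fanconi pathway of DNA crosslink repair. It read 8.04, 7.90 and 8.16 in exposed cells, against 8.41, 8.72 and 8.55 in unexposed cells. The exposed values all lay below the unexposed ones, and the log2 change was -0.53 (SE 0.10, 95% interval -0.76 to -0.29, limma adjusted p = 0.0396).

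UBE2S lengthens the ubiquitin chains on substrates of the anaphase-promoting complex, the ligase that ends mitosis. It read 8.13, 8.05 and 8.16 in exposed cells, against 8.43, 8.42 and 8.54 in unexposed cells. Its groups did not overlap either, with a log2 change of -0.35 (SE 0.07, 95% interval -0.50 to -0.20, limma adjusted p = 0.0372). Its call was lost whichever array was left out, with limma adjusted p of 0.0601 to 0.135.

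USP1 removes the ubiquitin that UBE2T places on FANCD2, and also acts on PCNA, the sliding clamp of DNA replication. It read 8.99, 8.81 and 9.06 in exposed cells, against 9.36, 9.56 and 9.42 in unexposed cells. The log2 change was -0.50 (SE 0.08, 95% interval -0.69 to -0.30, limma adjusted p = 0.0329), and exposed replicate 2 was the lowest array. WDR48, the partner that activates USP1, stood at 0.11 (limma adjusted p = 0.473), and PCNA at -0.18 (limma adjusted p = 0.325). FANCD2, FANCI and FANCL carry no named probe set here.

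UBE2T, UBE2S and USP1 are genes that dividing cells express strongly. Beside them the proliferation marker MKI67 read 10.3, 10.1 and 10.2 in exposed cells, against 10.6, 11.0 and 10.8 in unexposed cells, a log2 change of -0.60 (limma adjusted p = 0.0298). Its call was lost in the same 4 settings as those of all genes, with limma adjusted p of 0.0474 to 0.120 without one array. Of the partners of UBE2S, the activator CDC20 changed by -0.41 (limma adjusted p = 0.0432), the activator FZR1 by -0.32 (limma adjusted p = 0.0550) and the core subunits ANAPC2 by 0.33 (limma adjusted p = 0.0868) and ANAPC11 by -0.09 (limma adjusted p = 0.566). The call of CDC20 held when exposed replicate 3 was left out and was lost when any other array was (limma adjusted p of 0.0469 to 0.133), and also with arrays centred on their medians (0.0501). The replication clamp PCNA, given above, was at -0.18 and did not pass (limma adjusted p = 0.325). The part that a different share of dividing cells has in the values of UBE2T, UBE2S and USP1 was not tested. MKI67 and these partners were named after their values were seen.

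USP48, a nuclear deubiquitinase, was the member that rose. It read 7.31, 7.30 and 7.25 in exposed cells, against 6.95, 6.84 and 7.00 in unexposed cells. The exposed arrays were close together and all above the unexposed ones, and the log2 change was 0.36 (SE 0.07, 95% interval 0.19 to 0.53, limma adjusted p = 0.0446). Its call was lost whichever array was left out (limma adjusted p of 0.0765 to 0.158), and also with arrays centred on their medians (0.0540).

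The promoters of the 5 genes that fell are shown because these genes moved in one direction, with the letters of 3 motifs in capitals. The windows come from RefSeq (GRCh38.p14), run from 250 bases before to 50 bases after a transcription start, and are written 5′ to 3′ on the gene's strand. USP1 has 2 annotated starts, and no window was found for USP48. Capitals mark the cell cycle homology region motif TTTGAA, the CCAAT box and the E2F core TTNNCGC with only C or G at each N, all on either strand, so that a reverse match of the first reads TTCAAA and one of the CCAAT box reads ATTGG.
DCAF16, chr4:17810708-17811007, minus strand: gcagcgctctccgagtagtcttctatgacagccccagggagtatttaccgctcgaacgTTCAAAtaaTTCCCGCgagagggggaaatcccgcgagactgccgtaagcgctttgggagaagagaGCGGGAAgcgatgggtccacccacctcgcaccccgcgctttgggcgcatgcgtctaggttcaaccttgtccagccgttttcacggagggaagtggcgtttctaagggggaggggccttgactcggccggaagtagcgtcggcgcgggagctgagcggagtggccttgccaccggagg
DCAF15, chr19:13952259-13952558, plus strand: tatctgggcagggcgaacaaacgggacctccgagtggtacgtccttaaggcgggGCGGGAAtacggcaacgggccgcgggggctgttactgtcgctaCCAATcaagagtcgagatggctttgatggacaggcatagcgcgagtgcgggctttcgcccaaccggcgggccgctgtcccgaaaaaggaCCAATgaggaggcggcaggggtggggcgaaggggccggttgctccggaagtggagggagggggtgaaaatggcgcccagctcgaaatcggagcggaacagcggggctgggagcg
UBE2T, chr1:202341887-202342186, minus strand: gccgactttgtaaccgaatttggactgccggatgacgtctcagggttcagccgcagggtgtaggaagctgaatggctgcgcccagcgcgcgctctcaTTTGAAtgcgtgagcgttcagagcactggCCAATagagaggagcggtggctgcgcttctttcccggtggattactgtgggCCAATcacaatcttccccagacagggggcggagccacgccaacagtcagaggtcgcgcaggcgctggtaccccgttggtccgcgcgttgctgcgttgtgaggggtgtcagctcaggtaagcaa
UBE2S, chr19:55407739-55408038, minus strand: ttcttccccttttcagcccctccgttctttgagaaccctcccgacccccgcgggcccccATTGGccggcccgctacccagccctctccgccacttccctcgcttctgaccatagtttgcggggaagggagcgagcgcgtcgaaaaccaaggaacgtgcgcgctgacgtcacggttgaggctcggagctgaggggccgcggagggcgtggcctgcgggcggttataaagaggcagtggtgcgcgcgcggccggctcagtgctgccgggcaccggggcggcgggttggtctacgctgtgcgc
USP1, first start, chr1:62436145-62436444, plus strand: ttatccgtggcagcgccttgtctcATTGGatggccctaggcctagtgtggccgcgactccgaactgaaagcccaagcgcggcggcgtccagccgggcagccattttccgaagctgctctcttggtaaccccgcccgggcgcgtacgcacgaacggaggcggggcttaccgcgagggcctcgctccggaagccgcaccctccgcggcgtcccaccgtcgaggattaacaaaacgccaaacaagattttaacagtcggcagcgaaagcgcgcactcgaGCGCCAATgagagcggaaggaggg
USP1, other start, chr1:62436799-62437098, plus strand: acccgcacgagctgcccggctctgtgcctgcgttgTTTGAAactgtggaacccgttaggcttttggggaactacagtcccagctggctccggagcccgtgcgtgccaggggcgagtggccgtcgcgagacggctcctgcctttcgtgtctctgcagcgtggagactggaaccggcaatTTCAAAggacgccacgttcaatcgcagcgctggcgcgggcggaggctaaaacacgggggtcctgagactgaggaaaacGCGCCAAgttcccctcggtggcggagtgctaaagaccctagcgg

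The TTTGAA motif stood once in the windows of DCAF16 and UBE2T and at 2 places in the second window of USP1. CCAAT boxes stood at 2 places each in the windows of DCAF15, UBE2T and the first start of USP1, and once in that of UBE2S. An E2F form stood at 2 places in the window of DCAF16 and once in that of DCAF15 and in each window of USP1, where in the first window of USP1 it overlaps a CCAAT box. Of all 35116 RefSeq windows of this length, 15.2% hold TTTGAA, 34.6% hold CCAAT and 13.0% hold an E2F form. Of the 129 windows found for 90 members, these shares were 8.53%, 25.6% and 21.7%. The matches describe the letters alone.

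The deubiquitinases of the USP family were the largest group, with 46 measured genes, of which USP1 fell, USP48 rose and 44 did not pass. USP13, which acts in the disposal of misfolded proteins of the endoplasmic reticulum, read 7.17, 7.18 and 7.35 in exposed cells, against 7.48, 7.91 and 7.76 in unexposed cells. Its change of -0.48 was nearly as large as that of USP1, but its unexposed arrays were further apart and it did not pass (95% interval -0.75 to -0.21, limma adjusted p = 0.0686). USP8, which frees receptors such as EGFR from ubiquitin on endosomes, had a smaller and tighter change of -0.29 (95% interval -0.44 to -0.13, limma adjusted p = 0.0599). It read 8.07, 8.10 and 8.06 in exposed cells, against 8.34, 8.46 and 8.30 in unexposed cells, with no overlap.

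Further USP genes with an unadjusted p under 0.05 did not pass over all genes. The negative ones were USP3 (-0.30), USP16 (-0.27), USP7 (-0.24), USP42 (-0.24), USP25 (-0.21) and USP22 (-0.16). USP7 protects the p53 regulator MDM2 from degradation, USP22 is the deubiquitinase of the SAGA coactivator, and USP3 and USP16 act on histones. The positive ones were USP51 (0.41), which also acts on histones, USP31 (0.22) and USP20 (0.21). Their limma adjusted p lay between 0.124 and 0.259. USP51 was highest in exposed replicate 2, with 4.97, 5.20 and 4.68 in exposed cells, against 4.51, 4.60 and 4.50 in unexposed cells.

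The 8 OTUD genes had 7 negative changes and 0 that passed in limma, with 3 at an unadjusted p under 0.05 and a median of -0.18, or 5 negative and a median of -0.08 after centring on ribosomal protein genes. OTUD7B, which trims the kind of ubiquitin chain that UBE2S builds, read 7.53, 7.61 and 7.40 in exposed cells, against 7.84, 7.91 and 7.82 in unexposed cells. Its change was -0.34 (95% interval -0.52 to -0.17) with a limma adjusted p of 0.0562. OTUD5, a regulator of interferon signalling, was at -0.24 (limma adjusted p = 0.0749), and OTUD6B at -0.20 (limma adjusted p = 0.213). OTUD6A was the 1 positive OTUD gene, at 0.28 (limma adjusted p = 0.365) and a dim level, with 3.98, 4.15 and 3.76 in exposed cells, against 3.70, 3.59 and 3.76 in unexposed cells. Of the 3 UCHL genes, UCHL5, a deubiquitinase that sits on the proteasome, was at -0.36 (limma adjusted p = 0.127) and UCHL3 at -0.20 (limma adjusted p = 0.442). UCHL1, which is abundant in neurons, was at 9.55, 9.51 and 9.51 in exposed cells, against 9.44, 9.32 and 9.44 in unexposed cells. Its change of 0.13 did not pass (limma adjusted p = 0.284).

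**Figure D2:**
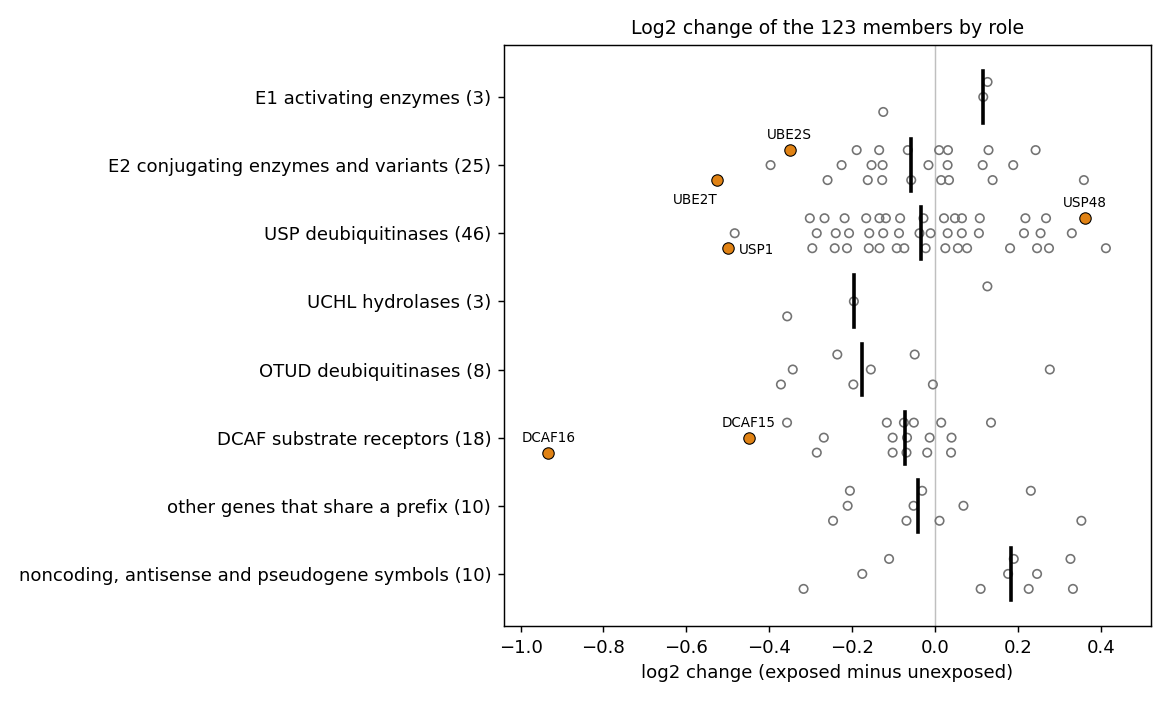
Log2 change (exposed minus unexposed, horizontal axis) of each of the 123 members, by role, with the number of genes in brackets. Filled points passed an adjusted p of 0.05 in limma and carry a name, open points did not, black bars are medians, and vertical offsets within a row only separate the points. DCAF16 at -0.93 stands apart at the left, and USP48 is the filled point at the right of 0.

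Of the E1 genes, UBA1, UBA3 and UBA6 were measured, and 0 passed in limma, also at an unadjusted p under 0.05. UBA1, the main ubiquitin-activating enzyme, read 11.28, 11.27 and 11.27 in exposed cells, against 11.26, 11.04 and 11.16 in unexposed cells. Its exposed values lay just above all unexposed values, with a log2 change of 0.12 (95% interval -0.03 to 0.26, limma adjusted p = 0.374). UBA6, which also activates the ubiquitin-like protein FAT10, changed by 0.13 (limma adjusted p = 0.323). UBA3, the catalytic subunit of the NEDD8-activating enzyme, changed by -0.12 (limma adjusted p = 0.476). NAE1, the other subunit of that enzyme and no member, had a change of -0.60 that did not pass either (limma adjusted p = 0.0579). It read 8.04, 7.74 and 8.22 in exposed cells, against 8.43, 8.78 and 8.61 in unexposed cells.

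Besides UBE2T and UBE2S, 4 E2 genes had an unadjusted p under 0.05. UBE2E3, an E2 that is carried into the nucleus once charged, read 6.80, 6.61 and 6.86 in exposed cells, against 7.05, 7.20 and 7.20 in unexposed cells. Its change was -0.40 (95% interval -0.61 to -0.18, limma adjusted p = 0.0629). UBE2L6, the E2 of ISG15, read 7.09, 7.21 and 7.05 in exposed cells, against 6.89, 6.71 and 6.68 in unexposed cells. It was the E2 gene with the largest positive change, 0.36 (95% interval 0.16 to 0.56, limma adjusted p = 0.0709), and its groups did not overlap. UBE2K was at -0.23 (limma adjusted p = 0.195) and UBE2H at 0.19 (limma adjusted p = 0.231). The bright E2 variant UBE2V1 differed little, with 10.42, 10.40 and 10.43 in exposed cells, against 10.44, 10.42 and 10.44 in unexposed cells.

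Of the 10 coding genes that share a prefix without being E1, E2 or a ubiquitin hydrolase, 0 passed in limma and 4 had an unadjusted p under 0.05. USPL1, a protease for SUMO, had the largest positive change at 0.35 (95% interval 0.15 to 0.56, limma adjusted p = 0.0738). It read 6.57, 6.81 and 6.68 in exposed cells, against 6.34, 6.38 and 6.28 in unexposed cells, with no overlap. UBAP1, a subunit of the ESCRT machinery that sorts ubiquitin-marked receptors, changed by 0.23 (limma adjusted p = 0.221). USP6NL, which turns off the endosomal GTPase RAB5, changed by -0.21 (limma adjusted p = 0.175), and UBAP2 by -0.21 (limma adjusted p = 0.192). Of the 10 noncoding and pseudogene symbols not counted with the E2 genes, 0 passed in limma and 1 had an unadjusted p under 0.05. UBAC2-AS1 changed by 0.33 (limma adjusted p = 0.151), UBE2Q2P1 by 0.33 (0.395), USP27X-DT by -0.32 (0.284) and UBE2MP1 by -0.18 (0.525). UBE2Q2P1 and USP27X-DT were dim, with mean levels of 2.67 and 3.59. UBAC2, which the antisense gene UBAC2-AS1 is named for, was at -0.07.

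Some members share a signal. USP17L9P and USP17L12 hold the same values on all 6 arrays, so they are 1 measurement, and the USP17L genes are near-identical copies whose signals are uncertain as to the member. UBE2NL, UBE2DNL and UBE2MP1 are close copies of other E2 genes and are uncertain for the same reason. USP2, DCAF6 and USP17L9P have more than 1 probe set. The further probe set of USP2 was at -0.01, where the one used was at 0.18, and that of DCAF6 was at -0.09, where the one used was at -0.10. For USP17L9P the further probe set was at -0.33 and the one used at 0.25.

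Probe sets differ in brightness for reasons of their probes, so levels of different members are given as signal and not as an order of abundance. The brightest were UBA1 at a mean of 11.2, UBAP2L at 10.8, UBE2V1 and USP22 at 10.4, DCAF7 at 9.92, USP14 at 9.82, USP5 at 9.63 and UBAP2 at 9.48. The dimmest were UBE2U at 1.71, DCAF8L1 at 2.33, USP26 at 2.36 and the pseudogene DCAF13P3 at 2.52. In all, 25 members had a mean below 3.96, the lowest array median over all probe sets, and 0 of these passed in limma or had an unadjusted p under 0.05. Of the other 98 members 6 passed.

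Over all members 73 changes were negative and 50 positive, and the median log2 change was -0.05, against 0.0029 over all genes. The median of the members' levels was 6.76, 6.80 and 6.82 in exposed arrays, against 6.89, 6.90 and 6.86 in unexposed arrays. The same median over all genes was 5.30, 5.30 and 5.29 in exposed arrays, against 5.28, 5.24 and 5.29 in unexposed arrays. The exposed and unexposed values of 48 members did not overlap, 31 lower and 17 higher in exposed cells. That is 39.0% of members against 27.0% of all genes, of which 13.8% were lower and 13.2% higher. These shares were not matched for brightness. Among brighter genes negative changes were commoner in general, with 67.7% of the 62 brighter members against 57.2% of the 4072 genes of that level. With arrays centred on ribosomal protein genes, which moved the median of all genes to 0.09, the members' median was 0.04 and 52 of 123 changes were negative.

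**Figure D3:**
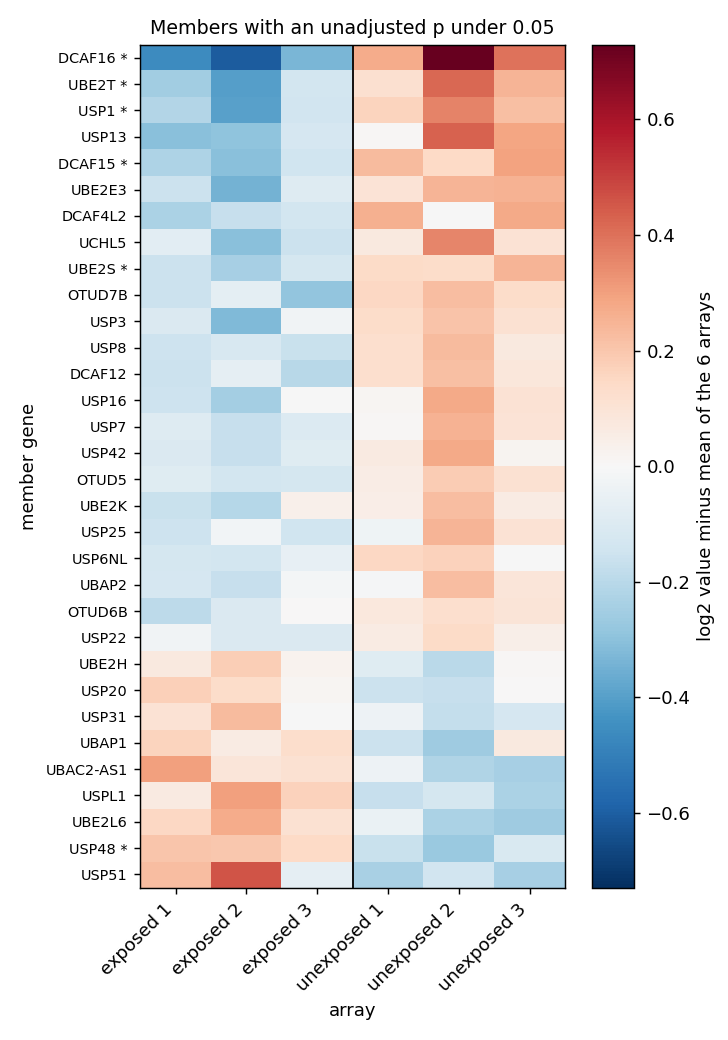
Log2 value minus the mean of the 6 arrays (colour) for the 32 members with an unadjusted p under 0.05 (rows, sorted by log2 change), with exposed arrays left and unexposed arrays right of the line. An asterisk marks the 6 members with an adjusted p of 0.05 or less, and 23 of the 32 are lower and 9 higher in exposed cells.

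Members were also grouped by the processes they act in. Of 9 members that act in DNA damage and Fanconi repair, UBE2T and USP1 fell and 7 did not pass. Of the 9 changes 8 were negative, with a median of -0.24, and UBE2B was the positive one at 0.12 (limma adjusted p = 0.697). The other 6 that did not pass, USP3, UBE2N, USP7, UBE2V2, UBE2A and USP28, lay between -0.30 and -0.03. UBE2N, USP28 and UBE2B had mean levels of 3.97, 4.25 and 4.51, little above the array medians, so their signs are uncertain. Centring on ribosomal protein genes left 7 negative and a median of -0.15. Of 5 members of cell division, UBE2S fell and 4 did not pass, and of the 5 changes 4 were negative. USP16 was at -0.27 (limma adjusted p = 0.171), USP37 at -0.21 (0.413) and USP39 at -0.13 (0.417), while the dim USP44 was at 0.28 (0.579). Of 7 measured members that act in degradation from the endoplasmic reticulum, 0 passed in limma, and 3 had an unadjusted p under 0.05 (USP13, UBE2K and USP25), all with negative values. The other 4, UBE2G2, UBAC2, USP19 and UBE2G1, lay between -0.13 and 0.03. Of 4 measured members of the ubiquitin-like pathways 0 passed in limma and UBE2L6 alone had an unadjusted p under 0.05, with UBA6, UBA3 and UBE2Z between -0.12 and 0.13.

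Other genes of the pathway gave 2 calls. Of 10 measured E1 and E2 genes with other names, the apoptosis inhibitor BIRC6, which carries its own E2 domain, fell. It read 8.26, 8.25 and 8.20 in exposed cells, against 8.47, 8.57 and 8.62 in unexposed cells, a log2 change of -0.32 (SE 0.06, limma adjusted p = 0.0442). A list of other deubiquitinases and their relatives, with SUMO proteases, COPS5, SENP8 and PAN2 among them, had 17 measured genes. Of these STAMBPL1, an endosomal deubiquitinase, rose. It read 7.59, 7.52 and 7.56 in exposed cells, against 7.07, 6.90 and 7.23 in unexposed cells, a log2 change of 0.49 (SE 0.09, limma adjusted p = 0.0403). Both calls were lost whichever array was left out.

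A further list held scaffolds and partners of cullin-RING ligases, not only cullin 4, and cullin 4 receptors with other names. Of 23 measured cullin-RING genes 0 passed in limma and 7 had an unadjusted p under 0.05, 6 lower and 1 higher. Among these were the receptors PHIP (-0.28), BRWD1 (-0.27), WDTC1 (-0.20) and DTL (-0.20), while CUL7 (0.29) was the positive one. CUL3, a cullin other than those of the DCAF receptors, was nearest to the threshold with a change of -0.28 (limma adjusted p = 0.0599). CUL4A, the scaffold for DCAF receptors, was at -0.01, its paralogue CUL4B at 0.08 and the adaptor subunit DDA1 at -0.02. DDB1 carries no named probe set here. Of 9 genes of the COP9 signalosome, which strips NEDD8 from cullins, 0 passed in limma and 2 had an unadjusted p under 0.05, with COPS3 at -0.30 (limma adjusted p = 0.172). Of 9 measured ubiquitin and ubiquitin-like genes 0 passed in limma and 1 had an unadjusted p under 0.05, ISG15 at 0.19 (limma adjusted p = 0.205). Of 38 listed proteasome genes 2 were measured, so the proteasome cannot be described, and its receptor ADRM1 was at -0.09.

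**Figure D4:**
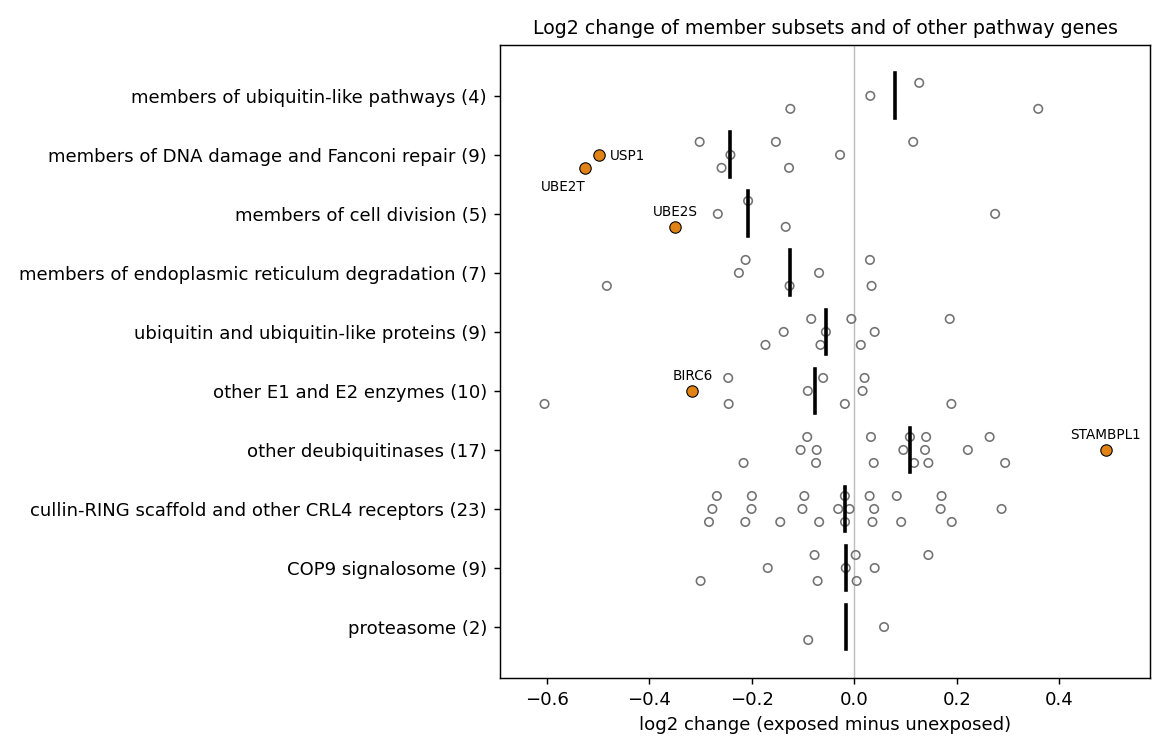
Log2 change (exposed minus unexposed, horizontal axis) of members grouped by process (upper 4 rows) and of further pathway genes that are not members (lower 6 rows), with the number of measured genes in brackets. Filled and named points passed an adjusted p of 0.05 in limma, open points did not, and black bars are medians. The filled points are USP1, UBE2T, UBE2S, BIRC6 and STAMBPL1.

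The labelled line was checked against marker genes. The mesenchymal glioma markers TNC, VIM, CD44 and CHI3L1 had means of 8.81 to 11.8, while NES was at 6.83 and GFAP at 5.04. Of these 6 markers 0 passed in limma, and GFAP had an unadjusted p under 0.05, at 5.21 ± 0.14 in exposed cells and 4.86 ± 0.07 in unexposed cells (SD, n = 3 each). Measured markers of leukocytes, epithelial cells, neurons and oligodendrocytes lay between 2.45 and 5.35 in mean level, and 0 of these 7 passed in limma or had an unadjusted p under 0.05. Of the 3 measured endothelial markers VWF and PECAM1 were at 3.66 and 3.15, and KDR at 6.77. KDR had a change of -0.43 with a limma adjusted p of 0.0761, and VWF and PECAM1 did not reach an unadjusted p of 0.05. Array medians over all probe sets lay between 3.96 and 3.99.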

How the data were processed

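The deposited values are on a log2 scale, 1 for each of 53617 probe sets on each of 6 arrays. Per the submitters' processing notes, the authors made them with RMA (background correction, normalization across arrays, summary of probes into probe sets), and the notes also name the programs Transcriptome Analysis Console 3.0 and Affymetrix Expression Console 3.0 without settings. RMA makes arrays alike in distribution, so a change in total RNA per cell would not be seen. No detection calls come with the values, and precision is limited by how many arrays there are.

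Of the probe sets 16098 carried a gene symbol in the platform annotation, which gave 14884 genes, and the rest were unnamed here. Exposed minus unexposed was fitted over all probe sets with limma 3.58.1 in R 4.3.3 (lmFit and eBayes, two-sided, with a mean-variance trend, without covariates or a filter on dim signals). Benjamini-Hochberg adjustment of the p-values ran over the representative probe sets of all genes, with a threshold of 0.05. Figures were drawn with matplotlib 3.10.9.

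The members and gene lists were chosen with earlier results of these data known, so counts over them describe and support nothing independently. Named were all members that passed, the 2 with the smallest p in each direction of each role, the brightest and dimmest, members of the process groups as a value or within a range, and the genes nearest the threshold in each further list. MKI67 and the partners of USP1, UBE2S and UBA3 were added after values were seen.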

Additional observations from a re-analysis of the deposited data

How the results depend on the processing

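With the alternatives tried, the log2 changes of the 56 single genes other than DCAF16 kept their sign in all but 2 of 780 values, and those 2 were ADRM1 (0.00158) and ANAPC11 (0.000386) with arrays centred on ribosomal protein genes, against -0.09 for each with the main settings. Of the 780 values, 79 lost their call and 10 gained one. Only genes called with the main settings could lose a call. Of 14 alternatives, each of these genes lost its call in between 6 (MKI67) and 11 (USP48). Deviations from the group means of same-numbered exposed and unexposed arrays had correlations of -0.0164, -0.0253 and 0.00964. No pairing by replicate number was thus seen in the values. With 3 arrays per group, such correlations cannot exclude that same-numbered cultures were handled together. With the replicate number as a block, 0 of all 14884 genes passed, so the counts of members in all, higher and lower, and of other pathway genes, were all 0, while 2286 genes, 25 of them members, had an unadjusted p under 0.05, and DCAF16 stayed at -0.93 (limma adjusted p = 0.127). Without a mean-variance trend these counts were again 0, also over all genes, with 2220 genes, 20 of them members, at an unadjusted p under 0.05 and DCAF16 at -0.93 (limma adjusted p = 0.159). Over probe sets above the median level, 98 members were tested, of which 12 (12.2%) passed, 10 lower and 2 higher, against 753 of 10712 genes (7.03%), and 4 other pathway genes passed, where fewer genes enter the adjustment. Adjusted over all probe sets, 2 members (1.63%) passed, both lower (DCAF15 and DCAF16), 0 higher, and 0 other pathway genes, against 162 of all genes (1.09%). With arrays centred on ribosomal protein genes 3 members (2.44%) passed, all 3 lower (DCAF16, UBE2T and USP1), and 0 higher, against 254 of all genes (1.71%). With arrays centred on their medians 5 members passed, all lower, and 0 as higher, against 401 of all genes (2.69%). When arrays were left out one at a time, genes past the threshold ran from 0 to 325, members from 0 to 4, lower ones from 0 to 4, higher ones and other pathway genes were 0, and DCAF16 lay between -1.03 and -0.80. The members' median change was -0.0408 with quantile normalization again, -0.0638 with arrays centred on their medians, 0.0398 with arrays centred on ribosomal protein genes and -0.0687 over probe sets above the median level, and from -0.0666 to -0.0453 with each array left out. The cause of these shifts was not tested.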
